A study of Mus musculus with 10 samples.

Results

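The kinesin family of microtubule motors was taken as every gene of the deposited expression table whose symbol is Kif followed by a number and at most 1 letter, which gave 38 of 55276 genes. They were placed in role classes. The mitotic kinesins were 12 genes, with 8 for spindle and chromosome movement (Kif2b, Kif2c, Kif4, Kif11, Kif15, Kif18a, Kif18b and Kif22) and 4 for cytokinesis (Kif14, Kif20a, Kif20b and Kif23). A further 15 were transport kinesins, 6 were kinesins of cilia and flagella, and 5 fell in none of these classes. The C-terminal kinesins, whose symbols begin with Kifc, and the mitotic kinesin Cenpe lie outside the rule.

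Kinesins are motor proteins that use ATP to walk along microtubules or to shorten them. Mitotic members build the spindle, move chromosomes and complete the division of the cell body, and their transcripts are known to peak in the G2 and M phases of the cell cycle. Transport members carry vesicles, organelles and mitochondria in dividing and resting cells alike, with several subtypes used mainly by neurons and other secretory cells, and a further set works in cilia and flagella. In the corpus, the main body of the stomach where acid is made, cell division takes place mainly in the isthmus of each gland, while most mature cells no longer divide.

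RNA was sequenced from EpCAM-positive, DAPI-excluding corpus epithelial cells of C57BL/6 mice aged 6 to 8 weeks, in 10 libraries. All mice carried the reporter Iqgap3-2A-tdTomato, which makes the red protein tdTomato together with the scaffold protein Iqgap3. They were either Runx3 R122C, with an arginine-to-cysteine change in the Runt-family transcription factor RUNX3, or Runx3 WT. Cells were sorted into an Iqgap3-high, tdTomato-positive fraction (IQ3pos) and an Iqgap3-low or negative, tdTomato-negative fraction (IQ3neg). The groups were R122C IQ3pos (n = 2), WT IQ3pos (n = 3), R122C IQ3neg (n = 2) and WT IQ3neg (n = 3). Every library pooled 3 mice, except both WT replicate 2 libraries, which pooled 4, so the spread behind each p-value is that between pools of mice, not single mice. The labels do not say whether the R122C mice carried 1 or both mutant alleles. The comparisons ask which kinesins separate the fractions and whether the R122C change alters their levels.

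Values are log2 CPM (read counts scaled to the size of the library) as deposited, in which every gene below 1 CPM is listed at 0. The divisors behind the CPM, read from the steps between values, ran from 47432129 to 264816271 reads, so 1 CPM stood for 47.4 to 265 reads. The listed CPM of a library added up to 1036666 to 1053761, so the listed genes held more reads than the divisor, and how it was set is not known here. At 1 CPM a 95% exact counting interval reached at most 0.44 below and 0.41 above on the log2 scale. Such intervals cover only the error of counting, as amplified reads with no molecular identifiers can be copies of 1 molecule. The labels could not be checked against Runx3 itself, which was listed at 0 in 8 of 10 libraries and reached 1.27 in a WT IQ3neg library, nor against Iqgap3, listed at 0 in 7 of 10 libraries with a highest value of 3.16. All 5 epithelial markers were above the listed 0 in every library. WT replicate 1 stood apart, since epithelial markers summed to 1244 CPM in its IQ3neg library, against 4606 to 5399 in the other 4 IQ3neg libraries, and 6 immune markers to 1798, against 151 to 552. Its IQ3pos library likewise had the lowest epithelial sum of the IQ3pos libraries (3537, against 5033 to 6267) and the highest immune sum (1178, against 50.04 to 251). The summed CPM of 10 enteroendocrine markers was 223 to 356 in R122C IQ3pos and 212 to 499 in WT IQ3pos, against 11449 to 15355 in R122C IQ3neg and 12330 to 20266 in WT IQ3neg. In bulk RNA of this kind, fewer cells of a type and less RNA per cell cannot be told apart.

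Of the 38 kinesins, 10 were above the listed 0 in all 10 libraries. Another 4 (Kif2b, Kif6, Kif17 and Kif26a) were listed at 0 in every library, and 3 (Kif7, Kif26b and Kif27) were above it in 1 library each. The 31 kinesins above it in 2 or more libraries entered the limma test, which was fitted over 17155 such genes. The deposited values of all members by library show a block of high mitotic values in IQ3pos, while transport values spread over both fractions.

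**Figure D1:**
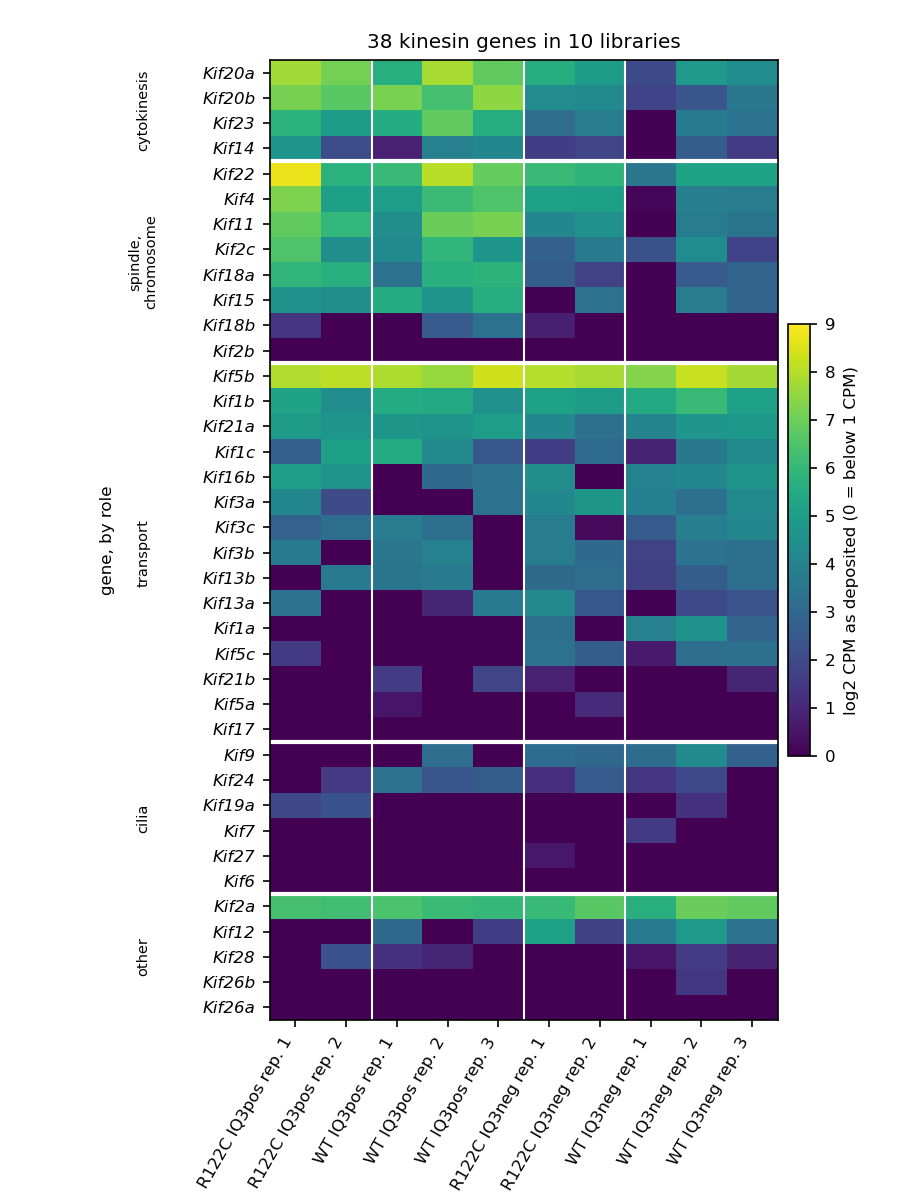
Deposited log2 CPM (colour, 0 = below 1 CPM) of the 38 kinesin genes (rows, by role) in the 10 libraries (columns, 4 groups split by white lines). The cytokinesis and spindle rows were higher in the IQ3pos columns, Kif5b was near 8 in every column, and Kif1a was listed at 0 in all 5 IQ3pos libraries.

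The cytokinesis kinesins were the class with most members called between the fractions. With both genotypes weighted equally, 3 of the 4 were higher in IQ3pos than in IQ3neg at an adjusted p under 0.05. Over all classes 4 of 38 kinesins were higher and 0 lower in the limma fit, where 4.24% of all genes tested were called, 1.67% higher and 2.57% lower. In the same fit 15 of the 31 tested kinesins had an unadjusted p under 0.05, against 3434 of all 17155 genes tested. All 4 called kinesins were mitotic.

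Kif20b (chr19:34922361-34975745, plus strand, GRCm38), a motor of late cytokinesis, was listed at 7.15 and 6.69 log2 CPM in R122C IQ3pos, 7.20, 6.35 and 7.47 in WT IQ3pos, 4.34 and 4.32 in R122C IQ3neg, and 1.80, 2.38 and 3.61 in WT IQ3neg. Every IQ3pos library lay above every IQ3neg library. The difference averaged over genotypes was 3.50 ± 0.43 (SE), an 11.3-fold higher CPM, with an adjusted p of 0.00101, and IQ3pos was higher within 5 of 5 same-numbered pairs of libraries. In WT alone the difference was 4.41 ± 0.54 with an adjusted p of 0.0021, and Kif20b was the 1 kinesin called there, where 2.03% of all genes tested were called, 0.606% higher and 1.42% lower. With each library centred on its median, 6 kinesins were called in WT, 5 higher and 1 (Kif1a) lower, where 5.47% of all genes were called. In R122C alone it was 2.59 ± 0.66 with an adjusted p of 0.186. Kif20b kept an adjusted p under 0.05 in the average and in WT under every alternative run.

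Kif20a, a partner of the chromosomal passenger complex at the central spindle, was listed at 7.75 and 7.11 log2 CPM in R122C IQ3pos, 5.68, 7.81 and 6.79 in WT IQ3pos, 5.62 and 4.93 in R122C IQ3neg, and 2.07, 4.83 and 4.37 in WT IQ3neg. The fractions did not overlap, although WT IQ3pos replicate 1 lay only just above R122C IQ3neg replicate 1. The averaged difference was 2.58 ± 0.57 (SE), a 5.97-fold higher CPM, with an adjusted p of 0.0271, and IQ3pos was higher in 5 of 5 pairs, by 2.12 to 3.61. Exons of Kif20a share 29.3% of their bases with Cdc23 on the other strand. Since no source used here says that reads were counted by strand, the level of Kif20a is uncertain by an amount not known here. Cdc23 was listed at 5.85 to 7.50 log2 CPM in the IQ3pos libraries and 4.47 to 6.60 in the IQ3neg libraries, and its part in the Kif20a values was not tested.

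Kif23, which with Racgap1 forms the centralspindlin complex that positions the cleavage furrow, was listed at 5.74 and 4.98 log2 CPM in R122C IQ3pos, 5.57, 6.82 and 5.62 in WT IQ3pos, 3.20 and 3.80 in R122C IQ3neg, and 0, 3.71 and 3.44 in WT IQ3neg. The lowest IQ3pos library was above the highest IQ3neg library. The averaged difference of 2.74 ± 0.70 (SE) had an adjusted p of 0.04998, at the edge of the threshold, and it takes the WT IQ3neg library listed at 0 as 0. Kif14, which acts at the midbody, was at 0.82 to 4.65 in the 5 IQ3pos libraries and 0 to 2.65 in the 5 IQ3neg libraries, and its averaged difference of 1.60 ± 0.92 had an adjusted p of 0.36.

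Among the spindle and chromosome kinesins, Kif18a was called. Kif18a, which shortens microtubule plus ends and helps align chromosomes, was listed at 5.91 and 5.66 log2 CPM in R122C IQ3pos, 3.38, 5.73 and 5.81 in WT IQ3pos, 2.66 and 1.77 in R122C IQ3neg, and 0, 2.59 and 2.94 in WT IQ3neg. The fractions did not overlap, and WT replicate 1 was the lowest library in each. The averaged difference was 3.35 ± 0.74 (SE) with an adjusted p of 0.0261, and the 5 pairs gave 2.87 to 3.89. In R122C alone the difference was 3.57 ± 1.14 with an adjusted p of 0.317, and in WT alone 3.13 ± 0.93 with an adjusted p of 0.108.

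The other spindle and chromosome members did not pass in the average. Kif11, which slides antiparallel microtubules to separate the spindle poles, was listed at 6.82 and 5.97 log2 CPM in R122C IQ3pos, 4.45, 6.96 and 7.14 in WT IQ3pos, 4.18 and 4.56 in R122C IQ3neg, and 0, 3.77 and 3.47 in WT IQ3neg. Its averaged difference was 2.90 ± 0.77 (SE) with an adjusted p of 0.0574, and WT IQ3pos replicate 1 lay below R122C IQ3neg replicate 2. For Kif15, which helps keep the spindle bipolar, the fractions did not overlap, at 4.47 to 5.62 in IQ3pos and 0 to 3.76 in IQ3neg, with an adjusted p of 0.0748. Kif22, which pushes chromosome arms towards the spindle equator, was listed at 8.72 and 5.76 in R122C IQ3pos, 6.05, 8.06 and 6.89 in WT IQ3pos, 6.10 and 5.84 in R122C IQ3neg, and 3.58, 5.23 and 5.22 in WT IQ3neg. R122C IQ3pos replicate 2 lay below both R122C IQ3neg libraries, so the fractions overlapped. The chromosome-arm motors Kif22 and Kif4 and the microtubule depolymerase Kif2c had averaged differences of 1.80 ± 0.59, 2.18 ± 0.75 and 2.20 ± 0.66, with adjusted p of 0.112, 0.124 and 0.0825. Exons of Kif4 share 15.1% of their bases with Pdzd11 on the other strand. Kif18b was listed at 0 in 6 of 10 libraries and reached 3.40 in WT IQ3pos replicate 3, and Kif2b, a depolymerase, was listed at 0 throughout. Of all mitotic kinesins, 5 (Kif15, Kif18a, Kif20a, Kif20b and Kif23) had every IQ3pos library above every IQ3neg library, as did 5.74% of all genes tested. No kinesin had every IQ3pos library below every IQ3neg library, as 3.18% of all genes tested did.

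**Figure D2:**
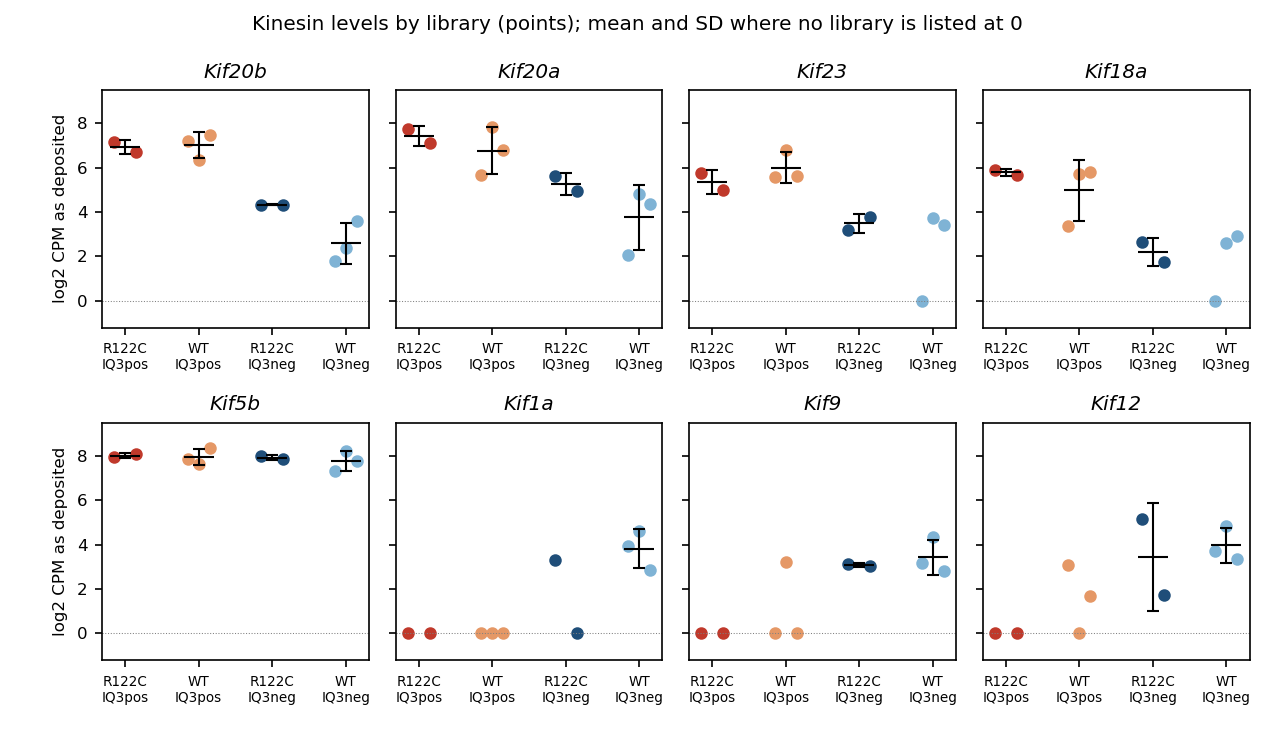
Deposited log2 CPM of 8 kinesins by library (points) in the 4 groups, with mean and SD where no library of the group is listed at 0 (n = 2 for R122C, n = 3 for WT). Kif20b, Kif20a, Kif23 and Kif18a lay higher in every IQ3pos library than in any IQ3neg library, Kif5b lay between 7.31 and 8.35 throughout, and Kif1a, Kif9 and Kif12 were listed at 0 in most IQ3pos libraries.

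The fits that treat same-numbered libraries as pairs called more of the class. With the replicate block, 6 mitotic kinesins were higher in WT IQ3pos than in WT IQ3neg, namely Kif20b (adjusted p = 0.00445), Kif20a (0.00979), Kif11 (0.0104), Kif18a (0.0403), Kif4 (0.0423) and Kif23 (0.0437), against 1 without it, where the block called 2.12% of all genes. In the average the block called 7 (5.18% of all genes), the 4 above and Kif11 (adjusted p = 0.00751), Kif22 (0.0446) and Kif4 (0.0466). The averaged calls of Kif18a, Kif20a and Kif23 did not hold when any of several libraries was left out. Calls over all genes fell in the same fits, from 4.24% to 2.11% without WT IQ3pos replicate 2 and to 2.5% without WT IQ3pos replicate 3. Without any 1 of R122C IQ3pos replicates 1 and 2, WT IQ3pos replicates 2 and 3 and R122C IQ3neg replicates 1 and 2, all 3 lost their averaged call, with adjusted p from 0.0659 to 0.113 for Kif18a, from 0.0547 to 0.122 for Kif20a and from 0.0826 to 0.193 for Kif23. Kif23 also lost it without WT IQ3pos replicate 1 (adjusted p = 0.0603). Without both WT replicate 1 libraries, 4 kinesins were higher in WT (1.69% of all genes called), and 7 were called in the average, 6 mitotic higher and Kif5c lower (7.72% of all genes). Where an arm was left with 1 library, that library was assumed to vary like those of the other groups.

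Transcripts of several mitotic kinesins are known to depend on the cell cycle genes homology region (CHR), a short promoter word bound by complexes that hold such genes low in resting cells and raise them before mitosis. The promoters of the mitotic kinesins were therefore read for the CHR word TTTGAA on either strand, in RefSeq sequences of GRCm38.p6 that run from 250 bases before to 50 bases after the annotated start. Of 12 mitotic kinesins 11 had a promoter in the set used, and 9 of these held the word (81.8%). It was held by 1 of 11 transport kinesins (9.09%, Kif1a), by 1 of 5 cilia kinesins and by 1 of 4 kinesins of no class (Kif26b). Counted in the same way, 20.2% of all 27025 genes with a promoter in the set held it. The 6 stretches below are shown because they hold the word within 25 bases of the start, as Kif15 does too. Each spans 140 bases, 110 before and 30 after the start, written 5′ to 3′ on the strand of the gene, with TTTGAA, or TTCAAA where the word reads on the other strand, in capitals.
Kif20b (chr19:34922248-34922387, plus strand): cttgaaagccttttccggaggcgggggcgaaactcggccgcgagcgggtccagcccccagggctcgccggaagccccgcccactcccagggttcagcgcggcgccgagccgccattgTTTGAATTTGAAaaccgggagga
Kif23 (chr9:61946770-61946909, minus strand): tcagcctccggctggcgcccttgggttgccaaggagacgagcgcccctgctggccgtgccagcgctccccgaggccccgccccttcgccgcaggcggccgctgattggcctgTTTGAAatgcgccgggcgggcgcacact
Kif18b (chr11:102925095-102925234, minus strand): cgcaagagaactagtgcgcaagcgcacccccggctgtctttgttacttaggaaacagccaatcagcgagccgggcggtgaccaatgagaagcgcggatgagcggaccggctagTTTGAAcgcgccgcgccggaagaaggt
Kif4 (chrX:100625955-100626094, plus strand): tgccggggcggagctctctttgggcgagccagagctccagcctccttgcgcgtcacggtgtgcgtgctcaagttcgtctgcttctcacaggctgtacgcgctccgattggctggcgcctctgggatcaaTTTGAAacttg
Kif22 (chr7:127042391-127042530, minus strand): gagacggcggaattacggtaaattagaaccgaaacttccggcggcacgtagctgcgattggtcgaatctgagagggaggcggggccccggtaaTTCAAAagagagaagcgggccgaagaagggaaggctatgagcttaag
Kif11 (chr19:37376272-37376411, plus strand): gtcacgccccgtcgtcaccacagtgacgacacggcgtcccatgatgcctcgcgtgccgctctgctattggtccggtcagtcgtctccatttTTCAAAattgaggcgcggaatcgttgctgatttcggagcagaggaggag

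Kif20b holds 2 copies in tandem, which begin 8 and 14 bases after the start. The copies of Kif23, Kif18b and Kif4 begin 3, 4 and 20 bases after it, and those of Kif22 and Kif11 begin 17 and 19 bases before it. With Kif15, 7 of 11 mitotic kinesins held the word within 25 bases of the start (63.6%), a window chosen after the positions were seen. It was held there by 0 of 11 transport kinesins, 0 of 5 cilia kinesins, 1 of 4 kinesins of no class (Kif26b) and 3.10% of all genes. Among the called kinesins, the Kif18a promoter held no match and that of Kif20a was not analysed here.

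Other words were read in the same promoters. The NF-Y box CCAAT, often found upstream of a CHR, was in 7 of 11 mitotic and 3 of 11 transport kinesins and in 41.1% of all genes. The RUNX words TGTGGT and TGCGGT were in 3 of 11 mitotic kinesins (Kif2c, Kif11 and Kif18b), 0 of 11 transport kinesins and 25.03% of all genes. No matches of different words overlapped in the mitotic promoters. These matches describe the letters in a window and no binding was measured.

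**Figure D3:**
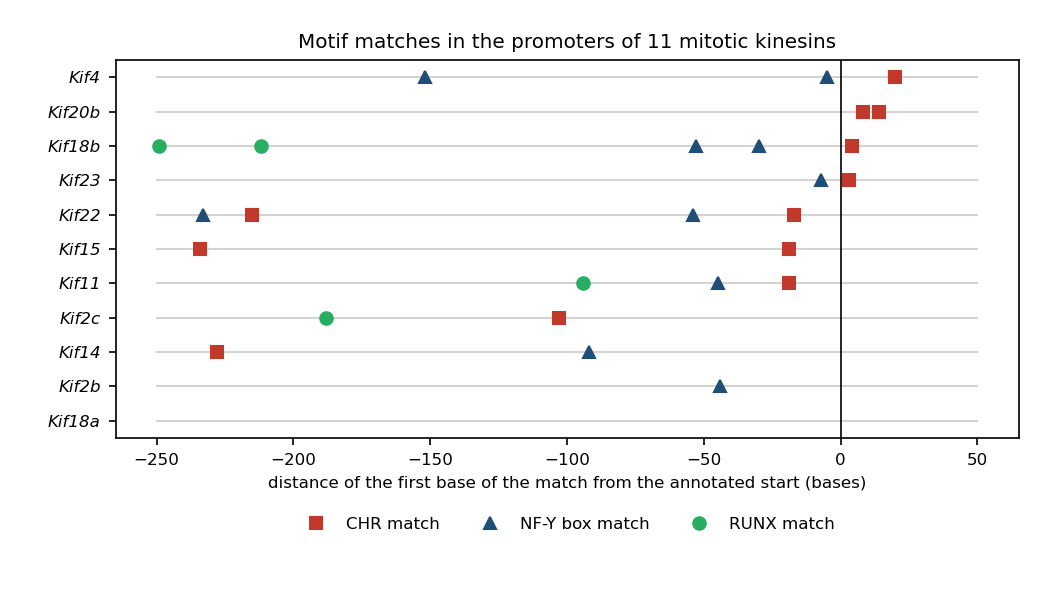
Positions of CHR, NF-Y box and RUNX word matches (first base, in bases from the annotated start) in the promoters of 11 mitotic kinesins, with grey lines for the 300 bases read. The CHR matches of 7 genes gathered within 25 bases of the start, and Kif18a and Kif2b held none.

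Transport kinesins had overlapping summed levels in the fractions, with Kif5b the largest part of the sum, and none of the 15 was called between fractions in the main limma fit. Of the 15, 5 to 7 were listed at 0 in R122C IQ3pos libraries and 6 to 7 in WT IQ3pos, against 2 to 4 in both R122C IQ3neg and WT IQ3neg. Over the whole table, 11879 to 13468 genes were above the listed 0 in IQ3pos libraries and 12609 to 14811 in IQ3neg libraries. The transport differences had a median of -0.20 log2 in the average, where all genes tested had 0.11 and the mitotic kinesins 2.39. In limma 3 of the 14 tested transport members had an unadjusted p under 0.05, against 3434 of all 17155 genes tested. The transport median ran from -0.71 (without R122C IQ3neg replicate 2) to 0 (without R122C IQ3pos replicate 1) with single libraries left out, and was -0.60 when centred. Kif5b (kinesin-1 heavy chain, the main motor for organelles and mitochondria outside neurons) was the most abundant of them. It was listed at 7.94 and 8.09 log2 CPM in R122C IQ3pos, 7.88, 7.62 and 8.35 in WT IQ3pos, 8.00 and 7.84 in R122C IQ3neg, and 7.31, 8.23 and 7.78 in WT IQ3neg. All 10 libraries lay close together, and the averaged difference was 0.13 ± 0.27 (SE), with a 95% interval from -0.46 to 0.73. It was -0.27 with each library centred on its median, so its small difference had no settled direction.

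Kif1a had the largest transport difference. Kif1a, which carries synaptic and dense-core vesicles in neurons, was listed at 0 in both R122C IQ3pos and all 3 WT IQ3pos libraries, against 3.30 and 0 log2 CPM in R122C IQ3neg and 3.93, 4.62 and 2.87 in WT IQ3neg. The averaged difference of -2.73 ± 0.72 (SE) had an adjusted p of 0.0561. Kif1a was called lower in the average with log2(CPM + 1) (5.08% of all genes called), when centred (8.33%) and without WT IQ3neg replicate 3 (4.88%). It was also called lower there without R122C IQ3neg replicate 2. In WT alone it was called lower with log2(CPM + 1) (2.65%), when centred (5.47%) and without R122C IQ3neg replicate 1 or 2. The fits without an R122C IQ3neg library held a single library of that group. Kif1a was not called with the replicate block. Kif5c, a kinesin-1 heavy chain used mainly in neurons, was listed at 1.52 and 0 in R122C IQ3pos and at 0 in all 3 WT IQ3pos libraries, against 3.37 and 2.66 in R122C IQ3neg and 0.66, 3.21 and 3.28 in WT IQ3neg (adjusted p = 0.082). Enteroendocrine markers differed in the same direction between the fractions, as given above. The 4 neuron markers (Tubb3, Elavl4, Nefl and Uchl1), summed, were at 0 CPM in all IQ3pos libraries, against 3.72 to 29.1 in R122C IQ3neg and 15.9 to 30.5 in WT IQ3neg. Their part in the Kif1a and Kif5c values was not tested.

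The remaining transport kinesins had averaged differences between -2.03 (Kif3a) and 1.34 (Kif1c) with adjusted p of 0.189 or more, and Kif17 was at 0 throughout. Kif3a, a subunit of the heterotrimeric kinesin-2 of intraflagellar transport, was at 0 to 4.15 log2 CPM in the IQ3pos libraries, against 3.30 to 4.76 in the IQ3neg libraries. Kif1b, Kif21a and Kif5b were the transport kinesins above the listed 0 in every library, together with Kif1c. Exons of Kif3c share 40.7% of their bases with noncoding genes on the other strand.

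**Figure D4:**
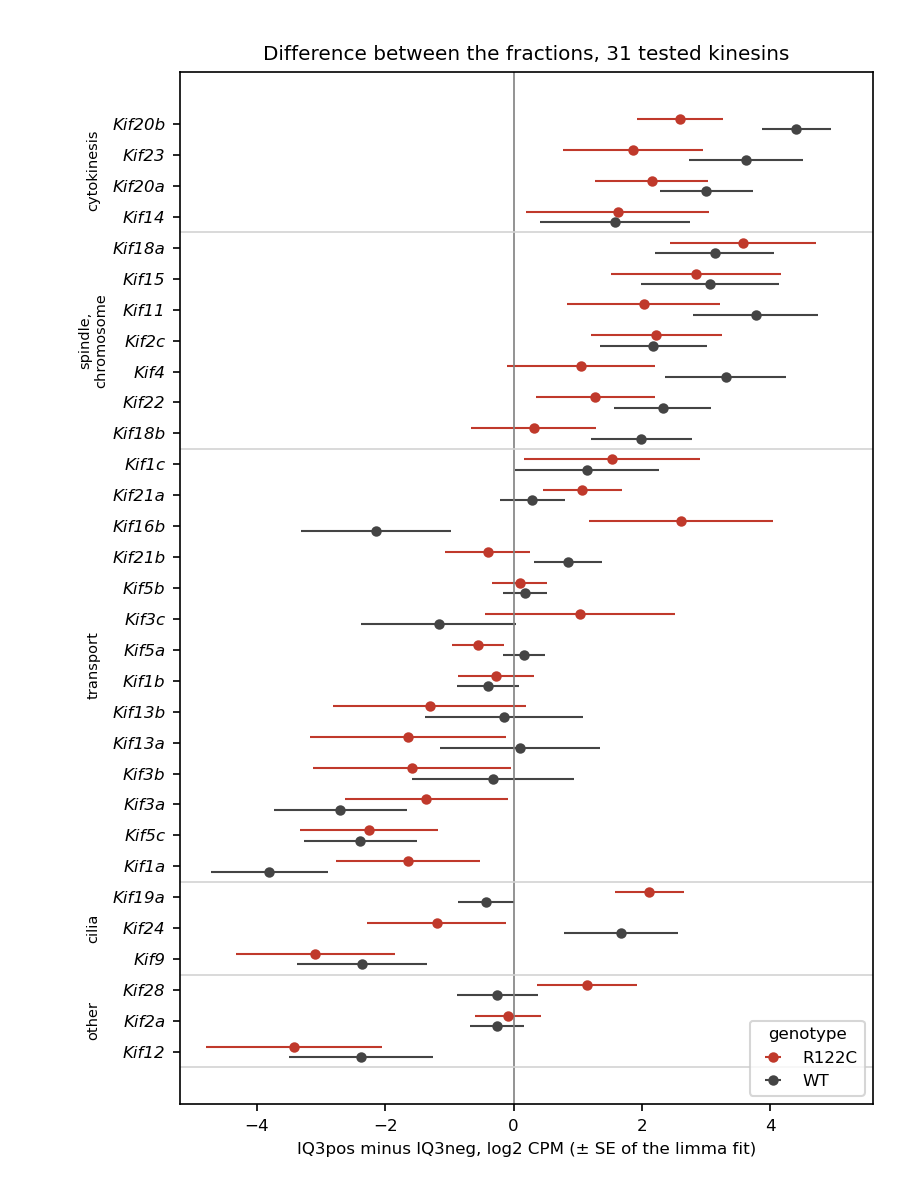
Difference between the fractions (IQ3pos minus IQ3neg, log2 CPM, ± SE of the limma fit) for the 31 tested kinesins by role, in R122C and in WT. In both genotypes 11 of the 12 mitotic members lay above 0 (Kif2b, at 0 throughout, is not drawn), while transport members fell on both sides of 0 and Kif9 and Kif12 lay below it.

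Summed over the class, and set per kilobase of exon so that genes of different length can be added, the mitotic kinesins stood at 238 and 88.9 CPM per kb in R122C IQ3pos, 71.3, 187 and 138 in WT IQ3pos, 41.3 and 37.4 in R122C IQ3neg, and 5.19, 28.3 and 22.1 in WT IQ3neg. Every IQ3pos library was above every IQ3neg library. The transport kinesins summed to 51.8 and 50.4 CPM per kb in R122C IQ3pos, 48.0, 40.0 and 53.8 in WT IQ3pos, 55.0 and 45.0 in R122C IQ3neg, and 34.5, 60.8 and 53.0 in WT IQ3neg, with the fractions overlapping. Kif5b alone held 30.7 and 34.1 of these transport sums in R122C IQ3pos and 29.5, 24.7 and 40.9 in WT IQ3pos. In R122C IQ3neg it held 32.1 and 28.7, and in WT IQ3neg 19.9, 37.6 and 27.6. The mitotic to transport ratio was thus 1.49 to 4.67 in the 5 IQ3pos libraries, against 0.15 to 0.833 in the 5 IQ3neg libraries. Mitotic members made up 51.8% to 78.4% of all kinesin CPM per kb in IQ3pos, against 9.44% to 36.5% in IQ3neg. Chief and pit cell markers also differed between the fractions, while sums of the 2 parietal markers overlapped. The parietal sums were 605 to 2222 CPM in R122C IQ3pos and 672 to 3768 in WT IQ3pos, against 559 to 1083 in R122C IQ3neg and 412 to 757 in WT IQ3neg. The 3 chief cell markers summed to 12807 to 12819 CPM in R122C IQ3pos and 10170 to 12949 in WT IQ3pos, against 38103 to 95162 in R122C IQ3neg and 43337 to 58179 in WT IQ3neg. The 4 pit cell markers summed to 12417 to 15617 in R122C IQ3pos and 12858 to 17722 in WT IQ3pos, against 3618 to 7701 in R122C IQ3neg and 1381 to 5651 in WT IQ3neg. Their part in the mitotic values was not tested.

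**Figure D5:**
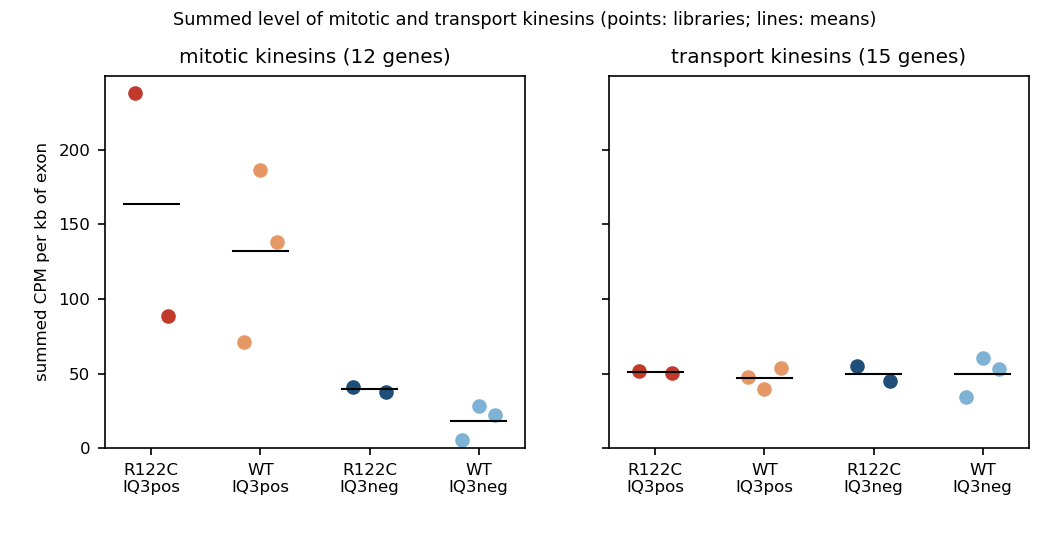
Summed CPM per kb of exon of the 12 mitotic (left) and 15 transport (right) kinesins by library (points; lines are group means), with members listed at 0 counted as 0. The mitotic sums were 71.3 to 238 in IQ3pos and 5.19 to 41.3 in IQ3neg, while the transport sums lay between 34.5 and 60.8 in all 4 groups.

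Per kilobase, the leading kinesin changed with the library. In R122C IQ3pos replicate 1 Kif22 led (85.98 CPM per kb), ahead of Kif20a (49.5) and Kif5b (30.7), while in replicate 2 Kif5b (34.1) and Kif20a (31.8) were ahead of Kif22 (11.1). In WT IQ3pos Kif5b led in replicates 1 and 3 and Kif22 in replicate 2, with Kif22 at 13.5 to 54.4, Kif20a at 11.8 to 51.8 and Kif5b at 24.7 to 40.9. Kif5b led in all 5 IQ3neg libraries, at 28.7 to 32.1 in R122C and 19.9 to 37.6 in WT. Kif2a, a microtubule depolymerase of dividing and resting cells, stood at 10.4 and 16.4 in R122C IQ3neg, against 13.9 and 11.7 for Kif22, so their order differed between these libraries, and stood at 7.87 to 19.1 in WT IQ3neg, against 2.45 to 7.66 for Kif22. The level of Kif2a differed little between the fractions (-0.18 ± 0.33 in the average, SE, 95% interval from -0.90 to 0.55), with 19.2% of its exon bases shared with Dimt1 on the other strand. WT IQ3neg replicate 1, set apart above by its epithelial and immune markers, also had the most mitotic members at 0, with 7 of 12 members listed at 0, against 2 of 12 in each of the other 4 IQ3neg libraries. It had the second smallest total, at 59.3 reads per CPM, and WT IQ3pos replicate 1 had the smallest. Without WT IQ3neg replicate 1 the median WT difference of the mitotic kinesins was 2.03 in place of 3.03, and without both WT replicate 1 libraries it was 2.57. The part of the immune and epithelial content in these values was not tested.

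The cilia kinesins were low. Kif9, a motor of cilia and sperm flagella, was listed at 0 in both R122C IQ3pos libraries and at 0, 3.21 and 0 log2 CPM in WT IQ3pos, against 3.14 and 3.03 in R122C IQ3neg and 3.19, 4.32 and 2.79 in WT IQ3neg. WT IQ3pos replicate 2 was above 4 of the 5 IQ3neg libraries. The averaged difference of -2.73 ± 0.80 (SE) had an adjusted p of 0.0785. Kif24, which acts at centrioles, was at 0 and 1.49 in R122C IQ3pos, 3.41, 2.37 and 2.67 in WT IQ3pos, 1.26 and 2.63 in R122C IQ3neg, and 1.44, 1.99 and 0 in WT IQ3neg. All 3 WT IQ3pos libraries lay above both R122C IQ3pos libraries, but the limma difference of R122C against WT there was not called (-2.07 ± 0.99, SE, adjusted p = 0.911). The share of all genes with such an order was not counted. Foxj1, which defines motile ciliated cells, was listed at 0 in every library, and the 3 ciliated cell markers summed to at most 5.42 CPM. Among members of no class, Kif12, whose loss in people is known to cause cholestatic liver disease, was listed at 0 in both R122C IQ3pos libraries and at 3.07, 0 and 1.69 in WT IQ3pos, against 5.15 and 1.71 in R122C IQ3neg and 3.69, 4.86 and 3.35 in WT IQ3neg. Its averaged difference of -2.91 ± 0.89 had an adjusted p of 0.087. With each library centred on its own median, which moved the median difference of all genes by -0.40, Kif12, Kif9, Kif1a and Kif5c were called lower and 6 mitotic kinesins higher, against 0 lower and 4 higher as deposited. Centring called 8.33% of all genes, against 4.24% as deposited. It moved listed 0s along with the other values of a library, so listed 0s no longer stood level between libraries. Kif12, Kif9, Kif1a and Kif5c were mostly listed at 0 in IQ3pos. How far their calls rested on the moved 0s was not tested.

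Transcripts of proteins that work with the mitotic kinesins differed in the same direction. The partner lists also held kinesins outside the rule, Cenpe and Kifc1 as mitotic partners and Kifc2 and Kifc3 as transport partners. Of 16 mitotic partners, among them Racgap1, the Aurora B complex and the spindle protein Tpx2, 15 were tested, and 11 were higher in IQ3pos in the average and 10 in WT, with 0 lower in each, where 1.67% of all genes tested were higher in the average and 0.606% in WT. The median difference of the 16 was 2.63 in the average. Birc5, the survivin subunit of the chromosomal passenger complex, was listed at 8.95 and 8.13 log2 CPM in R122C IQ3pos, 7.56, 8.38 and 8.36 in WT IQ3pos, 6.05 and 6.77 in R122C IQ3neg, and 4.00, 5.82 and 5.72 in WT IQ3neg, with no overlap between the fractions (2.53 ± 0.41, SE, adjusted p = 0.00579). Prc1, which bundles central spindle microtubules, had the largest averaged difference of the list, at 3.76 ± 0.68 (adjusted p = 0.0111). Of 13 mitotic partners with a promoter, 10 held the CHR word. Of 16 transport partners, among them kinesin light chains and cargo adaptors, 15 were tested and 0 called in any comparison (limma). In the average 5 of these partners had an unadjusted p under 0.05, against 3434 of all 17155 genes tested, and the lowest adjusted p of the partners was 0.0614. Their median difference in the average was -0.35.

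In R122C alone, 0 kinesins were called between the fractions in limma, where 0.321% of all genes tested were called (0.0291% higher and 0.291% lower). An unadjusted p under 0.05 was found there for 6 kinesins, against 1389 of all 17155 genes tested. The mitotic differences there had a median of 1.94, against 3.03 in WT, and 11 of 12 were above 0 in each genotype. The replicate pairs gave mitotic medians of 2.63 and 0.88 in R122C, against 3.50 for WT replicate 1 and 2.72 for WT replicate 3, with WT replicate 2 just below replicate 3. The difference of these differences (the interaction of fraction and genotype) was called for 0 kinesins, as for 0% of all genes, with 2 kinesins (Kif19a and Kif16b) and 444 of all 17155 genes tested at an unadjusted p under 0.05. For the mitotic kinesins it lay below 0 for 8 and above 0 for 3, with a median of -0.95, and 0 of them had an unadjusted p under 0.05. Leaving out single libraries moved this median between -1.63 (without R122C IQ3pos replicate 1) and -0.26 (without WT IQ3neg replicate 1). It was -0.34 without R122C IQ3pos replicate 2 and -0.51 without WT IQ3pos replicate 2. The interaction of Kif20b was -1.82, with a 95% interval from -3.68 to 0.052.

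Between genotypes within a fraction, 0 kinesins were called in limma, as for 0% of all genes in each comparison. In IQ3pos, R122C against WT, the mitotic differences had a median of 0.23, with 7 above 0 and 4 below, and its direction rested on single libraries. This median was -0.67 without R122C IQ3pos replicate 1 and -0.19 without WT IQ3pos replicate 1, but 0.78 without R122C IQ3pos replicate 2 and 0.50 without WT IQ3pos replicate 2. Kif20b differed by -0.084 in IQ3pos, with a 95% interval from -1.41 to 1.24, which leaves room for a difference of more than 1 log2 unit either way. In IQ3neg the mitotic differences had a median of 0.78, with 10 of 12 above 0 and 2 at an unadjusted p under 0.05 (Kif20b and Kif4), against 629 of all 17155 genes tested. Without WT IQ3neg replicate 1 this median was 0.28, with 7 above 0, and without WT IQ3neg replicates 2 or 3 it was 1.40 or 1.24. Between R122C replicate 1 and WT replicate 2, which carry the same code in their titles, Kif20b was higher in R122C than in WT by 0.81 in IQ3pos and by 1.96 in IQ3neg.

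Kif19a and Kif16b had the smallest unadjusted p in the interaction among the kinesins. Kif19a, a depolymerase that controls ciliary length, was listed at 1.96 and 2.28 log2 CPM in R122C IQ3pos and at 0 in all 3 WT IQ3pos libraries. In IQ3neg it was at 0 in both R122C libraries and at 0, 1.29 and 0 in WT. The unadjusted p for R122C against WT in IQ3pos was 0.00103 and the adjusted p 0.267. Kif16b, which moves early endosomes, was listed at 5.00 and 4.67 in R122C IQ3pos and 0, 3.06 and 3.37 in WT IQ3pos, against 4.44 and 0 in R122C IQ3neg and 3.94, 4.19 and 4.74 in WT IQ3neg. Its difference between fractions was 2.61 ± 1.43 (SE) in R122C and -2.15 ± 1.17 in WT, and the interaction had an unadjusted p of 0.0244 and an adjusted p that rounds to 1. The libraries listed at 0 were WT IQ3pos replicate 1 and R122C IQ3neg replicate 2. Among the 4 libraries that share a title code, which hold neither, the interaction was 1.69 in place of 4.76.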

How the data were processed

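The submitters' processing notes name the mouse build GRCm38 (mm10) and the tools edgeR, featureCounts, Subread 2.0.0 and STAR 2.7.1a. Strand use, read filters and scaling were not stated in any source used here. The authors deposited log2 CPM values of 55276 genes in 10 libraries, with every gene below 1 CPM listed at 0, so a gene at 0 is not necessarily without reads. CPM of the genes above that floor were whole multiples of 1 read (tolerance 0.05 read), which gave the divisor of each library.

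Differences were tested two-sided with limma 3.58.1 in R 4.3.3: the 10 libraries' log2 values, as deposited, were fitted with a mean for each of the 4 groups, and variances were moderated along the mean level (6 residual, 6.01 prior degrees of freedom). The 17155 genes that exceeded the listed 0 in 2 or more libraries were kept, and Benjamini-Hochberg adjustment ran over all of them, at a threshold of 0.05. Groups of 2 share the spread of all groups. In data simulated for WT IQ3pos against WT IQ3neg over 17155 genes, 39% of changes of 2 log2 units and 95% of changes of 4 were recovered. The changes were placed only in genes of higher mean level, with normal noise and no floor at 0. These rates therefore do not cover low members or the R122C groups of 2. The kinesins and lists were chosen with earlier results of these data known. Library values are given for called kinesins and for the largest averaged difference of each class with none called, and other members were named after their values were seen. CPM per kb used exon lengths of a GENCODE annotation of GRCm38.

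Same-numbered libraries deviated together from their group means over 7404 genes, with correlations of 0.17, 0.13 and 0.11 for WT pairs 1, 2 and 3. Their highest correlations with a WT library of another number were -0.092, 0.049 and -0.025. In R122C the correlation was 0.20, which is 1 value, since groups of 2 give both pairs the same. Same-numbered libraries were therefore treated as pairs in an alternative fit. This pairing comes from the data, and the labels do not say that same-numbered fractions came from the same mice. Other alternatives were a pseudocount of 1, 2 other filters, centring, leaving out libraries, and values within the 4-digit title code that WT replicate 2 and R122C replicate 1 share, a code that no source used here explains. Versions of the sums and promoter search were pandas 2.3.3 and Python 3.11.15.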

Additional observations from a re-analysis of the deposited data

How the results depend on the processing

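The count of kinesins called in WT IQ3pos against WT IQ3neg was 1 as reported, 3 with log2(CPM + 1) (Kif1a lower), 5 when genes had to exceed 0 in 5 or more libraries, 6 with each library centred on its median (5 higher, 1 lower), 6 with the replicate block, and 4 when both WT replicate 1 libraries were left out. Those not given as lower were higher, except that Kif1a, called without R122C IQ3neg replicate 1 or 2, was lower. Leaving out single libraries gave 1 to 4, with 4 without WT IQ3pos replicate 1. In the average over genotypes the count was 4 as reported, 6 with log2(CPM + 1) (Kif1a lower), and 1 with genes above 0 in at least 1 library (Kif20b, with adjusted p of 0.0581 for Kif18a, 0.0724 for Kif20a and 0.105 for Kif23). It was 9 with at least 5 libraries (Kif5c, Kif9 and Kif12 lower), 10 when centred (Kif1a, Kif5c, Kif9 and Kif12 lower), 7 with the block and 7 without the WT replicate 1 pair (Kif5c lower). Calls not named as lower were higher, also without single libraries, with these exceptions. Kif9 was called lower without WT IQ3pos replicate 2 and Kif5c without WT IQ3neg replicate 1. Kif1a was called lower without WT IQ3neg replicate 3 and without R122C IQ3neg replicate 2. Leaving out single libraries gave 1 to 6, with 1 without R122C IQ3pos replicate 1, WT IQ3pos replicate 3 or R122C IQ3neg replicate 1, and 2 without R122C IQ3pos replicate 2 or WT IQ3pos replicate 2. Calls over all genes moved as well: in the average 4.24% as reported, 5.08% with log2(CPM + 1), 2.19% and 7.57% with the looser and stricter filter, 8.33% when centred, 5.18% with the block and 7.72% without the WT replicate 1 pair, and in WT 2.03%, 2.65%, 0.889%, 4.54%, 5.47%, 2.12% and 1.69% in the same order. Without single WT libraries the share was 2.11% to 6.93% in the average, 0.473% to 2.72% in WT and 0.12% to 0.437% in R122C. Without the WT replicate 1 pair it was 0.642% in R122C. In R122C the count of kinesins called was 0 throughout except 1 (Kif18a) without the WT replicate 1 pair. Calls between genotypes and in the interaction stayed at 0 in all settings run, and the block changed no call other than those given. The median mitotic difference in WT was 3.03 as reported, 2.52 when centred, 2.57 without the WT replicate 1 pair and 2.03 to 3.52 without single libraries. The median transport difference in R122C was -0.41 as reported, -0.73 with log2(CPM + 1), -0.71 when centred, -0.065 within the shared title code and -0.75 to 0.017 without single libraries. Kif20b was called in WT and in the average under every alternative with a test. No called value changed sign, while some values with no call did, among them Kif5b in the average and the mitotic median of R122C IQ3pos against WT IQ3pos. The cause of these shifts was not tested. Centring moved listed 0s as well as other values, and moved the median difference of all genes by -0.51 in WT and -0.30 in R122C. The floor at 1 CPM limits the low members, whose differences depend on where a listed 0 is placed.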
